A study of Drosophila melanogaster with 4 samples.

Results

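In wing discs of Drosophila melanogaster, 77 genes had their highest transcript level in the library made with added Taiman (Tai) and stood well below it in each of the other 3 libraries. They were selected on the measured values. A gene was taken if log2(FPKM + 1) in the Yki+Tai library exceeded that in each other library by 1 or more and if the Yki library exceeded the GFP library by less than 0.5. FPKM counts the fragments of a gene, scaled to its transcript length and to the size of the library, and a difference of 1 on this scale is 2-fold in FPKM + 1. The rule asked for the mean of the 4 libraries to reach 1 FPKM and left out tai itself, heat shock genes, small RNA genes and the cuticle families Cpr, Twdl and Osi. It could take 7757 of the 13990 genes listed, so the members are 77 of 7757. They come from 76 annotated genes, since CG15313 and CG15314 are both parts of the chitinase gene Cht6 in the current annotation.

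Taiman is a coactivator of the steroid receptor family that binds the ecdysone receptor, and ecdysone is the hormone that starts molting and metamorphosis in insects. Yorkie (Yki) is the transcriptional coactivator at the end of the Hippo pathway, a kinase cascade that restrains growth, and it acts through DNA-binding partners such as Scalloped. Taiman also binds Yorkie, and the series was designed to compare Yorkie-driven discs with and without extra or depleted Taiman.

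The wing disc is the epithelial sac of the larva that forms the adult wing and notum, and its larval surroundings include tracheal branches, myoblasts and attached blood cells. All 4 genotypes carried engrailed-driven GFP (enGFP). The Yki+Tai group was enGFP+Yki+Tai, the Yki+Tai-IR group was enGFP+Yki+Tai-IR with an inverted-repeat construct against tai, the Yki group was enGFP+Yki, and the GFP group was enGFP alone. Larvae were at the wandering stage of the last instar and were raised at 25 °C, and 80 to 100 discs of a genotype were pooled into 1 library. The engrailed driver is active in the posterior compartment, so each library mixes transgenic posterior cells with anterior cells that do not express the transgenes. There was 1 library per genotype, so no difference given here has a replicate check and no test or p-value is possible.

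The targeted genes check the labels for added Yki and added Tai, but the level of tai does not check the Yki+Tai-IR label. The tai transcript was at 1260.3 FPKM in Yki+Tai, 22.9 in Yki+Tai-IR, 25.0 in Yki and 27.1 in GFP, so it differed little between the Yki+Tai-IR and Yki discs taken whole. The yki transcript was at 4535 FPKM in Yki+Tai, 2563 in Yki+Tai-IR, 5034 in Yki and 71.5 in GFP, so the Yki+Tai-IR library also carried the lowest yki level of the 3 Yki genotypes. The estimated depth was 12.5 M fragments in Yki+Tai, 8.31 M in Yki+Tai-IR, 9.58 M in Yki and 8.06 M in GFP. On a transcript of 2 kb, 3 fragments equal 0.134 FPKM in Yki+Tai, 0.202 in Yki+Tai-IR, 0.175 in Yki and 0.208 in GFP, and lower values were not resolved. The posterior gene en stood at 63.2 FPKM in Yki+Tai, 23.9 in Yki+Tai-IR, 32.6 in Yki and 43.2 in GFP, and hh at 50.4 FPKM in Yki+Tai, 34.6 in Yki+Tai-IR, 37.8 in Yki and 39.8 in GFP. The anterior gene ci stood at 29.8 FPKM in Yki+Tai, 103 in Yki+Tai-IR, 81.3 in Yki and 128 in GFP. Posterior transcripts thus took a larger part, and the anterior transcript a smaller part, of the Yki+Tai library than of the others, and their part in the members' levels was not tested.

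Of the 7757 genes, 243 (3.13%) were higher by 1 or more in Yki+Tai than in Yki, 274 (3.53%) were higher than in Yki+Tai-IR and 288 (3.71%) were higher than in GFP. In the other direction 162 genes (2.09%) were lower by 1 or more in Yki+Tai than in Yki, 338 (4.36%) were lower than in Yki+Tai-IR and 270 (3.48%) were lower than in GFP. Since the rule used these contrasts, 77 of 77 members passed each of them. The conditions cut the list from 243 genes above Yki to 149 also above Yki+Tai-IR, 112 also above GFP, and 77 with the limit on Yki against GFP. By the same limit over each other library, 112 genes (1.44%) stood highest in Yki+Tai, 76 (0.980%) in Yki+Tai-IR, 3 (0.0387%) in Yki and 28 (0.361%) in GFP.

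**Figure D1:**
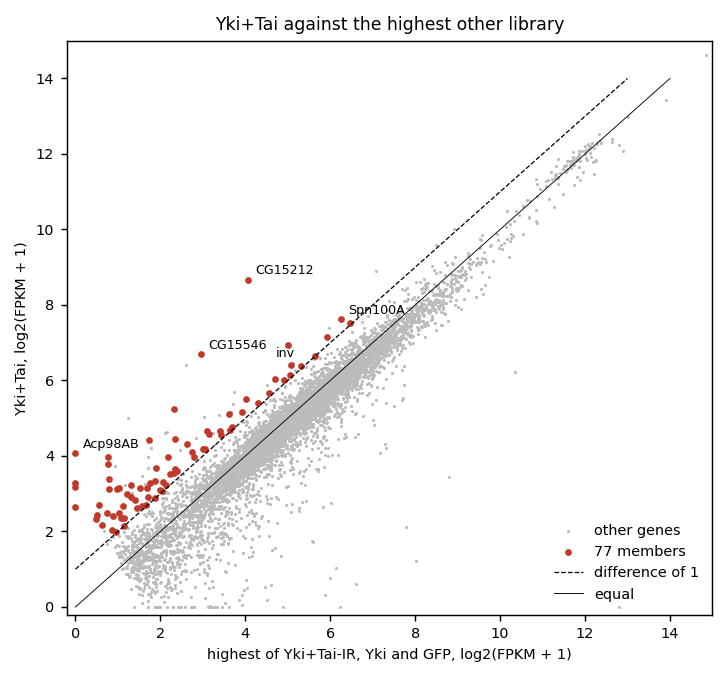
Each point is a gene, with its log2(FPKM + 1) in Yki+Tai on the vertical axis and the highest of its values in Yki+Tai-IR, Yki and GFP on the horizontal axis, for 1 pooled library per genotype. The 77 members (red) lie above the dashed line, which marks a difference of 1, and most of them lie at low levels in the other libraries. Gray points above the dashed line are genes that met the difference but not the limit on Yki against GFP.

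Most members were low-level genes outside the Yki+Tai library. Their median level was 10.6 FPKM in Yki+Tai, 2.07 in Yki+Tai-IR, 1.95 in Yki and 2.63 in GFP, and their summed level was 2470.05 FPKM in Yki+Tai, 514 in Yki+Tai-IR, 596 in Yki and 675 in GFP. The median of their mean level over the 4 libraries was 4.08 FPKM, against 26.6 FPKM for all 7757 genes. The margin, the difference in log2(FPKM + 1) between Yki+Tai and the highest other library, ran from 1.01 to 4.59 with a median of 1.43. It was 2 or more in 16 members. In Yki+Tai 26 members reached 20 FPKM, 6 reached 100 FPKM, and 37 stayed under 10 FPKM. Of the 73 members for which fragments could be estimated, 0 had under 10 fragments in Yki+Tai, 21 in Yki+Tai-IR, 18 in Yki and 14 in GFP, so the size of many margins rests on a few fragments in the other libraries. Members listed at exactly 0 numbered 6 in Yki+Tai-IR, 6 in Yki and 5 in GFP, and 4 members were listed at 0 in all 3.

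**Figure D2:**
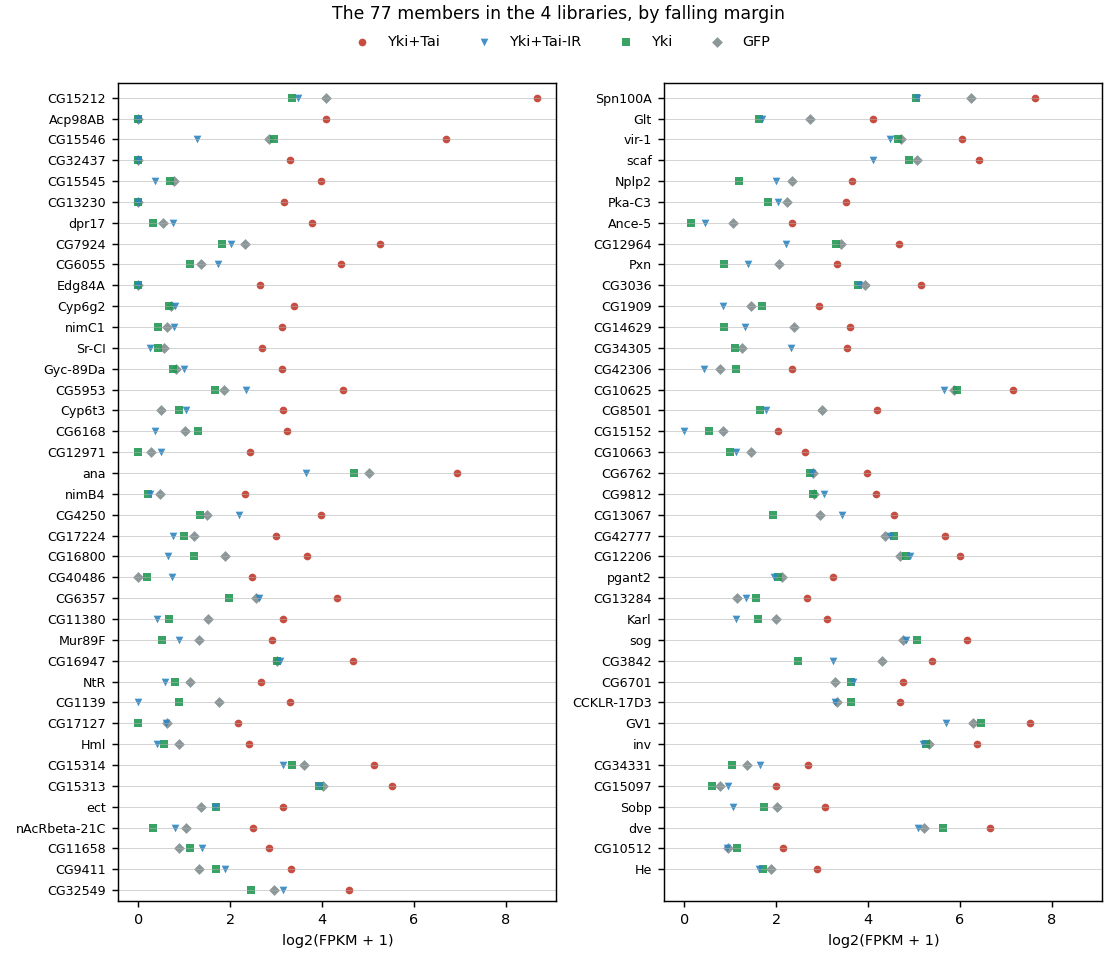
Level of each of the 77 members as log2(FPKM + 1) in the Yki+Tai (red circles), Yki+Tai-IR (blue triangles), Yki (green squares) and GFP (gray diamonds) libraries, ordered by falling margin down the left column and then the right. CG15212 has the widest margin (4.59) and He the narrowest (1.01), and the order of the other 3 libraries changes from gene to gene.

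The widest margin belonged to CG15212, a short gene of no described role on chromosome 3L (5131545 to 5132127, plus strand, dm6). It stood at 405 FPKM in Yki+Tai, 10.1 in Yki+Tai-IR, 9.21 in Yki and 15.8 in GFP. Its Yki+Tai level is the highest of the members and 16.4% of their summed level there, and rests on about 1189 fragments, against 20 in Yki+Tai-IR, 21 in Yki and 30 in GFP. Yki+Tai was 25.6 times the next highest, GFP. CG15546 (3R, 30874365 to 30876186, minus strand) stood at 103 FPKM in Yki+Tai, 1.41 in Yki+Tai-IR, 6.72 in Yki and 6.20 in GFP. Here the Yki+Tai-IR library lay apart below the other two. Its neighbor CG15545 stood at 14.7 FPKM in Yki+Tai, 0.277 in Yki+Tai-IR, 0.602 in Yki and 0.714 in GFP.

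CG7924 stood at 37.1 FPKM in Yki+Tai, 3.03 in Yki+Tai-IR, 2.52 in Yki and 3.98 in GFP. CG6055 stood at 20.3 FPKM in Yki+Tai, 2.33 in Yki+Tai-IR, 1.19 in Yki and 1.56 in GFP. CG5953 stood at 20.97 FPKM in Yki+Tai, 4.08 in Yki+Tai-IR, 2.19 in Yki and 2.63 in GFP. In these 3 genes of no described role the 3 other libraries lay within 0.67 of each other on the log2 scale, while the margins of Yki+Tai were 2.94, 2.67 and 2.11.

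The 4 members listed at 0 in each other library were Acp98AB at 15.9 FPKM in Yki+Tai, CG32437 at 8.78, CG13230 at 8.03 and the cuticle gene Edg84A at 5.25. No fold can be given for them. Over the whole table, 97 genes were listed at 0 in 1 library or more although another had at least 10 FPKM. Whether a value of exactly 0 is an absent transcript or a failed estimate was not tested. CG32437 rested on about 217 fragments, Edg84A on 29 and CG13230 on 11. Acp98AB, named as a male accessory gland protein, has a transcript of 175 nt, too short for a fragment estimate.

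The blood cells of Drosophila, hemocytes, engulf dead cells and microbes and secrete clotting factors and basement membrane, and 6 members are genes known from them. NimC1, a phagocytosis receptor of plasmatocytes listed as nimC1, stood at 7.70 FPKM in Yki+Tai, 0.719 in Yki+Tai-IR, 0.341 in Yki and 0.539 in GFP. Sr-CI, a class C scavenger receptor that binds bacteria, stood at 5.46 FPKM in Yki+Tai, 0.197 in Yki+Tai-IR, 0.343 in Yki and 0.474 in GFP. NimB4, a secreted Nimrod protein that takes part in the clearance of dying cells, stood at 4.03 FPKM in Yki+Tai, 0.189 in Yki+Tai-IR, 0.165 in Yki and 0.391 in GFP. All 3 were under 1 FPKM outside the Yki+Tai library.

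Hml (hemolectin), a clotting factor, stood at 4.29 FPKM in Yki+Tai, 0.320 in Yki+Tai-IR, 0.467 in Yki and 0.842 in GFP. Pxn (peroxidasin), an enzyme that cross-links collagen IV in basement membrane, stood at 8.999 FPKM in Yki+Tai, 1.60 in Yki+Tai-IR, 0.832 in Yki and 3.17 in GFP. He (hemese), a surface glycoprotein of larval blood cells, stood at 6.38 FPKM in Yki+Tai, 2.07 in Yki+Tai-IR, 2.25 in Yki and 2.67 in GFP. GFP was the highest of the other 3 libraries in Hml, Pxn, He, Sr-CI and NimB4, and Yki+Tai-IR was in NimC1. Over these 6 members Yki+Tai lay between 4.03 and 8.999 FPKM. A whole-disc library does not show which cells made these transcripts. More blood cells, more of these transcripts per blood cell and transcripts of other cells cannot be told apart.

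The list of blood cell markers has 31 genes, of which 18 were measured at a mean of 1 FPKM or more. Against Yki, 6 of the 18 were higher by 1 or more in Yki+Tai and 0 were lower, with a median of 0.63 against -0.0038 for all genes. Those 6 are the members above, which were selected on this difference. Against Yki+Tai-IR, 6 were higher and 0 lower, with a median of 0.52, and against GFP, 8 were higher and 1 was lower, with a median of 0.50. The rule set these differences too, so the 6 members are the 6 above Yki+Tai-IR and are among the 8 above GFP. All these medians include the members. Several other genes of these cells did not share the pattern. Crq (croquemort), a receptor for dying cells, stood at 32.5 FPKM in Yki+Tai, 32.1 in Yki+Tai-IR, 41.1 in Yki and 20.7 in GFP. Cg25C, a collagen IV chain that the fat body also makes, stood at 18.7 FPKM in Yki+Tai, 12.8 in Yki+Tai-IR, 11.6 in Yki and 19.97 in GFP. BM-40-SPARC, a collagen-binding matrix protein, stood at 35.5 FPKM in Yki+Tai, 49.2 in Yki+Tai-IR, 32.8 in Yki and 79.5 in GFP. In these genes Yki+Tai lay within the range of the other 3 libraries.

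Among markers below the filter, eater, a phagocytosis receptor, was at 1.84 FPKM in Yki+Tai, 0.394 in Yki+Tai-IR, 0.515 in Yki and 0.732 in GFP. The blood cell GATA factor srp was at 1.04 FPKM in Yki+Tai, 0.227 in Yki+Tai-IR, 0.174 in Yki and 0.466 in GFP. The crystal cell factor lz was at 0.0549 FPKM in Yki+Tai, a level that was not resolved. The crystal cell enzyme proPO-A1, which passed the filter, was at 2.68 FPKM in Yki+Tai, 2.07 in Yki+Tai-IR, 1.22 in Yki and 3.58 in GFP. Eater and srp were thus highest in Yki+Tai and proPO-A1 was highest in GFP. Of the 31 markers, 1 was listed at 0 in Yki+Tai, 2 in Yki+Tai-IR, 4 in Yki and 1 in GFP. The summed level of the list was 422 FPKM in Yki+Tai, 332 in Yki+Tai-IR, 341 in Yki and 413 in GFP, and it is led by the matrix gene Ppn, at 165 FPKM in Yki+Tai, 97.6 in Yki+Tai-IR, 129.6 in Yki and 164 in GFP.

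**Figure D3:**
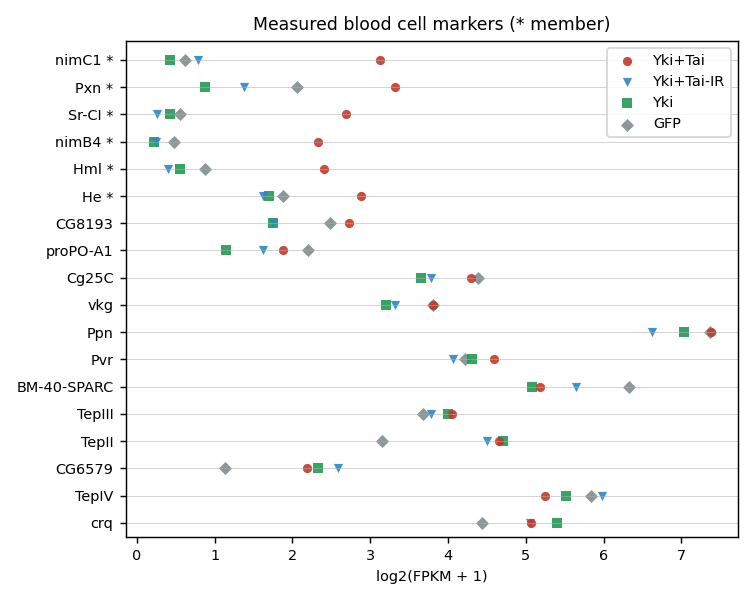
Level as log2(FPKM + 1) of the 18 measured blood cell markers in the Yki+Tai (red circles), Yki+Tai-IR (blue triangles), Yki (green squares) and GFP (gray diamonds) libraries, ordered by the difference of Yki+Tai from Yki, with members starred. The 6 members at the top stand apart in Yki+Tai, whereas the more abundant matrix and complement-like genes below them do not.

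Cuticle and chitin genes build the exoskeleton that epidermal cells secrete at each molt. Edg84A, an ecdysone-dependent pupal cuticle protein, is given above. CG15313 stood at 44.5 FPKM in Yki+Tai, 14.2 in Yki+Tai-IR, 14.3 in Yki and 15.2 in GFP. CG15314 stood at 33.8 FPKM in Yki+Tai, 7.92 in Yki+Tai-IR, 9.19 in Yki and 11.2 in GFP. Both lie in the annotated span of Cht6 (X, 10016845 to 10050803, plus strand). The entry listed as Cht6 itself was at 32.2 FPKM in Yki+Tai, 12.5 in Yki+Tai-IR, 16.7 in Yki and 10.1 in GFP, with a margin of 0.91, and is no member. Yki+Tai was the highest library in all 3 entries, which describe parts of 1 gene and are not independent.

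Mur89F, a mucin-related protein, stood at 6.542 FPKM in Yki+Tai, 0.855 in Yki+Tai-IR, 0.423 in Yki and 1.48 in GFP. In the list of chitin and cuticle assembly, Edg84A and ect were the members among 43 measured genes. Of those 43, 8 were higher by 1 or more in Yki+Tai than in Yki and 6 were lower, with a median of 0.31. Against Yki+Tai-IR 6 were higher and 10 lower, with a median of -0.06, and against GFP 7 were higher and 9 lower, with a median of 0.15. Edg84A and ect are among the higher genes in each comparison, since they were selected on these differences. The rule itself left out the Cpr and Osiris families of cuticle and epidermal genes. Within those families 8 Cpr genes (Cpr31A, Cpr35B, Cpr47Eb, Cpr47Ee, Cpr64Ac, Cpr72Ea, Cpr97Ea and Cpr100A) and 3 Osiris genes (Osi2, Osi6 and Osi7) met its numerical limits. So did 4 small RNA genes, each listed at 0 in the 3 other libraries. How many genes of these families were measured or went the other way was not counted. These counts therefore have no share beside them. The highest of the Cpr genes, Cpr35B, stood at 29.8 FPKM in Yki+Tai, 5.39 in Yki+Tai-IR, 7.27 in Yki and 9.18 in GFP.

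In the ecdysone response list Edg84A was the only member among 40 measured genes. Over that list 7 genes were higher by 1 or more in Yki+Tai than in Yki and 3 were lower, with a median of 0.09. Against Yki+Tai-IR 4 were higher and 4 lower, with a median of -0.08, and against GFP 7 were higher and 5 lower, with a median of -0.22. Edg84A is among the higher genes in each comparison, since it was selected on these differences. None of the 17 measured Yki target genes was a member, but the rule drops genes in which Yki exceeds GFP by 0.5 or more. By that limit it dropped kibra, an upstream Hippo pathway gene and known Yki target whose margin was 1.34, and 3 of the 17 were higher by 1 or more in Yki than in GFP. Between Yki+Tai and Yki 1 of the 17 was higher and 0 were lower, with a median of 0.24. Against Yki+Tai-IR 4 were higher and 0 lower, with a median of 0.32, and against GFP 4 were higher and 1 lower, with a median of 0.22.

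Secreted proteins that act outside the cell made up 5 further members. Spn100A, a serpin, which is an inhibitor of serine proteases, was the second most abundant member, at 197 FPKM in Yki+Tai, 32.7 in Yki+Tai-IR, 32.1 in Yki and 74.7 in GFP (3R, 30690642 to 30692768, plus strand). Yki+Tai-IR and Yki lay together here, with GFP between them and Yki+Tai. Glt (glutactin), a glycoprotein of basement membranes, stood at 16.2 FPKM in Yki+Tai, 2.22 in Yki+Tai-IR, 2.07 in Yki and 5.65 in GFP. It had the same order of libraries as Spn100A.

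Scaf (scarface), a serine protease homologue known as a target of Jun kinase signaling in dorsal closure of the embryo, stood at 83.7 FPKM in Yki+Tai, 16.2 in Yki+Tai-IR, 28.6 in Yki and 32.6 in GFP (2R, 5676750 to 5691723, minus strand). Ana (anachronism), a glycoprotein that glia secrete to hold neuroblasts quiescent, stood at 122 FPKM in Yki+Tai, 11.6 in Yki+Tai-IR, 25.0 in Yki and 31.3 in GFP (2R, 9062295 to 9077554, plus strand). Yki+Tai-IR was the lowest library in both. Sog (short gastrulation), an extracellular binding protein of BMP ligands, stood at 69.7 FPKM in Yki+Tai, 27.4 in Yki+Tai-IR, 32.3 in Yki and 25.9 in GFP. Scaf was the member among 32 measured genes of the JNK and wound list, of which 4 were higher by 1 or more in Yki+Tai than in Yki and 0 were lower. For that list 7 were higher and 1 lower than in Yki+Tai-IR, and 8 were higher and 1 lower than in GFP. Scaf is among the higher genes each time, because the rule picked it by these contrasts. The list medians were 0.21 against Yki, 0.20 against Yki+Tai-IR and 0.65 against GFP. The shares of all genes that were higher are 3.13%, 3.53% and 3.71%, in the order Yki, Yki+Tai-IR and GFP. The shares that were lower are 2.09%, 4.36% and 3.48%. Whether this list differs from all genes was not tested. Spn100A and scaf were the members among 20 measured serine proteases and serpins. They were the 2 genes of that list higher by 1 or more in Yki+Tai than in Yki, the difference they were selected on, and 0 were lower. Against Yki+Tai-IR 2 were higher and 1 lower, with a median of 0.14, and against GFP 2 were higher and 2 lower, with a median of -0.08. Those higher are again Spn100A and scaf, which were selected on these differences too.

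A pair of cytochrome P450 genes lies side by side on chromosome 2R. Cyp6g2 stood at 9.39 FPKM in Yki+Tai, 0.740 in Yki+Tai-IR, 0.585 in Yki and 0.624 in GFP. Cyp6t3, which is known from ecdysteroid production in the prothoracic gland, stood at 7.83 FPKM in Yki+Tai, 1.05 in Yki+Tai-IR, 0.842 in Yki and 0.416 in GFP. Both were near or under 1 FPKM in the other libraries. Of 20 measured P450 genes, 4 were higher by 1 or more in Yki+Tai than in Yki and 0 were lower, with a median of 0.35, and 2 of the 4 are the members selected on that difference. Against Yki+Tai-IR 5 were higher and 3 lower, with a median of 0.25, and against GFP 7 were higher and 1 lower, with a median of 0.54. The higher genes again include Cyp6g2 and Cyp6t3, which were selected on these differences too.

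The 7 members of another group encode proteins best known from neurons or from second messenger signaling. dpr17, a cell surface protein of the immunoglobulin superfamily, had the widest margin of them, at 12.7 FPKM in Yki+Tai, 0.693 in Yki+Tai-IR, 0.254 in Yki and 0.452 in GFP. Gyc-89Da, an atypical soluble guanylyl cyclase, stood at 7.67 FPKM in Yki+Tai, 0.980 in Yki+Tai-IR, 0.693 in Yki and 0.758 in GFP. CCKLR-17D3, a cholecystokinin-like receptor, stood at 24.9 FPKM in Yki+Tai, 8.65 in Yki+Tai-IR, 11.4 in Yki and 8.98 in GFP. The remaining 4 were NtR, a ligand-gated ion channel subunit, the nicotinic receptor subunit nAcRbeta-21C, the neuropeptide-like precursor Nplp2 and the protein kinase catalytic subunit Pka-C3. NtR was at 5.34 FPKM in Yki+Tai, nAcRbeta-21C at 4.65, Nplp2 at 11.6 and Pka-C3 at 10.5, with margins of 1.54, 1.47, 1.30 and 1.29. No member is on the list of neuron markers, of which 1 of 13 reached the filter.

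The 3 transcription regulators among the members had margins close to the limit. Inv (invected), a homeodomain protein of the posterior compartment and a paralog of engrailed, stood at 81.8 FPKM in Yki+Tai, 35.8 in Yki+Tai-IR, 37.2 in Yki and 39.0 in GFP (2R, 11474465 to 11509695, plus strand). Its 3 other libraries lay within 0.12 of each other on the log2 scale. Yki+Tai was 2.1997 times Yki and 2.10 times GFP. Inv marks the compartment in which the transgenes are expressed, and it was higher in Yki+Tai along with the posterior genes en and hh given above. Its ratios lie near the lowest that the rule allows, so the members' ratios cannot be read against them. Dve (defective proventriculus), a homeodomain protein, stood at 99.3 FPKM in Yki+Tai, 32.9 in Yki+Tai-IR, 48.7 in Yki and 36.1 in GFP. Sobp, a zinc finger protein related to the sine oculis-binding protein, stood at 7.35 FPKM in Yki+Tai, 1.10 in Yki+Tai-IR, 2.31 in Yki and 3.08 in GFP.

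A further group of 5 members, enzymes or transporters not placed in the groups above, had margins between 1.10 and 1.58. CG16947 (Rchy1), the counterpart of a mammalian ubiquitin ligase, stood at 24.4 FPKM in Yki+Tai, 7.53 in Yki+Tai-IR, 7.10 in Yki and 7.13 in GFP. CG32549 (Nt5b), a cytosolic nucleotidase, stood at 22.98 FPKM in Yki+Tai, 7.90 in Yki+Tai-IR, 4.49 in Yki and 6.69 in GFP. CG1139 (acs), an amino acid transporter, stood at 8.83 FPKM in Yki+Tai, was listed at 0 in Yki+Tai-IR and stood at 0.853 in Yki and 2.39 in GFP. The other 3 libraries were almost level in Rchy1 and were spread out in acs. CG6762 (Srx), a sulfiredoxin, was at 14.7 FPKM in Yki+Tai and between 5.61 and 5.97 in the others, and pgant2, which starts O-linked glycosylation, was at 8.43 FPKM in Yki+Tai and between 2.90 and 3.39 in the others.

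No role is given here for the remaining 44 members, whose margins ran from 1.01 to 4.59 and whose Yki+Tai levels ran from 2.98 to 405 FPKM. Among those of 20 FPKM or more in Yki+Tai, GV1 stood at 182 FPKM in Yki+Tai, 50.9 in Yki+Tai-IR, 86.6 in Yki and 77.1 in GFP. CG10625 (frm) stood at 140.4 FPKM in Yki+Tai, 48.9 in Yki+Tai-IR, 59.9 in Yki and 57.1 in GFP. The virus-induced gene vir-1 stood at 65.2 FPKM in Yki+Tai, 21.1 in Yki+Tai-IR, 24.1 in Yki and 25.1 in GFP. All 3 had Yki+Tai-IR as their lowest library.

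CG12206 stood at 63.4 FPKM in Yki+Tai, 28.9 in Yki+Tai-IR, 27.3 in Yki and 24.9 in GFP. CG42777 stood at 50.2 FPKM in Yki+Tai, 21.4 in Yki+Tai-IR, 22.6 in Yki and 19.8 in GFP, but its symbol now belongs to a piece of the mod(mdg4) locus (pre-mod(mdg4)-U), whose overlapping entries can share fragments. CG3842 stood at 40.9 FPKM in Yki+Tai, 8.48 in Yki+Tai-IR, 4.59 in Yki and 18.8 in GFP, the widest spread of the other 3 libraries among the members. CG3036, CG6701, CG12964 and CG13067 were at 34.7, 26.1, 24.5 and 22.6 FPKM in Yki+Tai, with margins of 1.23, 1.08, 1.26 and 1.13.

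Among the members under 20 FPKM, CG6168 had a margin of 1.93, CG12971 of 1.93, CG4250 of 1.79, CG17224 of 1.79, CG16800 of 1.78, CG40486 of 1.74, CG6357 of 1.69 and CG11380 of 1.62. CG6357 was the highest of these in Yki+Tai at 18.9 FPKM, and CG12971 the lowest at 4.40. The members CG17127, ect, CG11658, CG9411, Ance-5, CG15152, CG42306, CG10663, CG9812, CG13284, Karl and CG34331 were between 3.11 and 17.2 FPKM in Yki+Tai, with margins of 1.05 to 1.53. The 5 members just inside the limit were CG15097, Sobp, dve, CG10512 and He, with margins of 1.04, 1.04, 1.01, 1.01 and 1.01. Just outside lay DAAM, Cht5, CG6043, CG8568 and CG10089, with margins of 0.999, 0.996, 0.991, 0.989 and 0.979.

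The rule did not use position in the genome. Of the 77 members, 9 had another member gene within 20 kb, and no count was made for other gene sets of this size. NimB4, He and NimC1 lie in the Nimrod cluster of chromosome 2L (13968280 to 13976769), CG15545 and CG15546 lie 2013 bp apart on 3R, CG12971 and CG32437 lie 1187 bp apart on 3L, and Cyp6g2 and Cyp6t3 lie 304 bp apart on 2R. Adjacent genes can share fragments where their transcripts run into each other, since strand was not recorded in library preparation.

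Genes that are no member extended some of these blocks. CG15213, 668 bp from CG15212 on the other strand, stood at 31.3 FPKM in Yki+Tai, 0.785 in Yki+Tai-IR and 1.37 in Yki and was listed at 0 in GFP. It had a margin of 3.77 and missed the rule through the limit on Yki against GFP. Cpr100A, 1754 bp from CG15545, stood at 15.01 FPKM in Yki+Tai, 0.923 in Yki+Tai-IR, 0.625 in Yki and 0.529 in GFP and belongs to a family left out. CG32440, 311 bp from CG32437, was at 2.47 FPKM in Yki+Tai and listed at 0 in the other 3, below the filter on the mean. In the Nimrod cluster nimB1 and nimB5 were at 1.38 and 1.84 FPKM in Yki+Tai and at 0.119 or less in each other library. Other Nimrod genes went less far or were not resolved. The gene nimB2 was at 0.843 FPKM in Yki+Tai, 0.487 in Yki+Tai-IR, 0.170 in Yki and 0.101 in GFP. The gene nimA was listed at 0 in Yki+Tai and was at 0.125 in Yki+Tai-IR, 0.109 in Yki and 0.0647 in GFP, levels at which no direction can be read.

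Most neighbors did not share the pattern. CG4603, 1743 bp from CG15212, stood at 25.5 FPKM in Yki+Tai, 26.9 in Yki+Tai-IR, 28.2 in Yki and 35.2 in GFP. CG8858, whose span overlaps the end of Cyp6t3 on the other strand, stood at 23.4 FPKM in Yki+Tai, 24.7 in Yki+Tai-IR, 27.0 in Yki and 30.4 in GFP. Cyp6g1, next to Cyp6g2, was at 0.772 FPKM in Yki+Tai, 0.387 in Yki+Tai-IR, 0.785 in Yki and 0.200 in GFP. Of 294 neighbors within 20 kb that the rule could have taken and that are no member, 2 met the difference of 1 over each other library, CG15213 and CG32055, and 92 had Yki+Tai above each other library by any amount. The spans of 17 members overlap a gene on the other strand, and in 8 of these the partner was at 10 FPKM or more in Yki+Tai. Without strand, fragments cannot be told apart where transcripts of such a pair share sequence. The spans include introns and some overlap only at their ends, so this can concern a small part of a member. The same counts of neighbors and overlaps over all genes were not made.

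**Figure D4:**
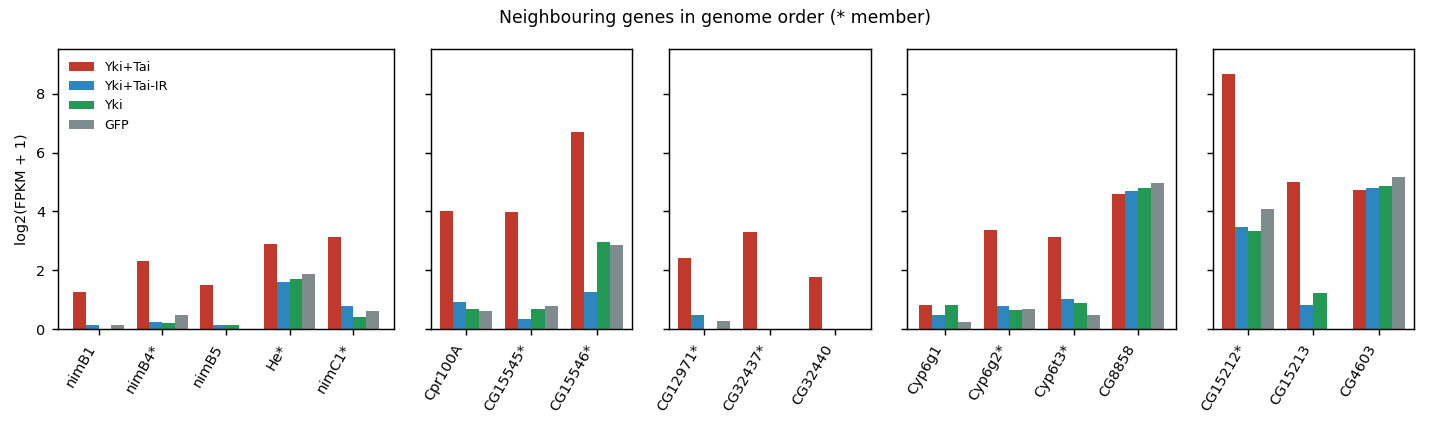
Level as log2(FPKM + 1) of selected genes in 5 stretches of the genome, in genome order. Bars stand for the Yki+Tai, Yki+Tai-IR, Yki and GFP libraries, members are starred, and the Nimrod genes nimA and nimB2 are not shown. Members share the Yki+Tai peak with CG15213, Cpr100A, CG32440, nimB1 and nimB5, but Cyp6g1, CG8858 and CG4603 are not highest in Yki+Tai by the limit.

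By chromosome, 22.1% of the members lay on 2L, 23.4% on 2R, 22.1% on 3L, 12.99% on 3R, 18.2% on X and 1.30% on 4. The matched genes that the rule could take were at 17.4% on 2L, 20.4% on 2R, 19.9% on 3L, 24.3% on 3R, 17.2% on X and 0.799% on 4. The chromosome with the lowest share of members relative to these genes was 3R, with 10 members. The median transcript of the members was 2185 nt long against 2070 nt for the genes the rule could take, and 19.5% of members against 14.9% of those genes had a transcript under 1000 nt. All 77 are annotated as protein coding, against 99.3% of the matched genes that the rule could take.

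The 3 libraries without added Tai were compared among themselves, keeping in mind that each had to lie below Yki+Tai by the limit. In Yki against GFP, 0 members were higher by 1 or more, as the rule requires, and 8 (10.4%) were lower, against 2.95% of all genes. Those 8 were Spn100A, Glt, Pxn, Nplp2, CG14629, CG8501, CG13067 and CG3842. The median difference was -0.17 and 54 of 77 members lay below 0, but the limit on Yki against GFP fixes part of that direction. CG3842 differed most, at 4.59 FPKM in Yki and 18.8 in GFP. CG14629 was at 0.828 FPKM in Yki and 4.21 in GFP, and CG8501 at 2.12 in Yki and 6.99 in GFP. In these genes GFP lay between Yki and Yki+Tai.

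In Yki+Tai-IR against Yki, 3 members (3.90%) were lower by 1 or more, against 0.915% of all genes, and 2 (2.60%) were higher, against 3.07% of all genes. The lower ones were CG15546, ana and CG12964, with differences of -1.68, -1.04 and -1.07, and each of them also lay more than 1 below GFP in Yki+Tai-IR. Another 10 lay between 0.5 and 1 below Yki, among them CG6168 (-0.95), acs (-0.89), CG1909 (-0.86), scaf (-0.78), GV1 (-0.76) and dve (-0.55). The higher ones were CG34305 and CG13067, with differences of 1.21 and 1.49. CG34305 stood at 3.99 FPKM in Yki+Tai-IR and 1.16 in Yki, and CG13067 at 9.78 FPKM in Yki+Tai-IR and 2.84 in Yki. Over all members 33 lay below 0 and 40 above, and the median was 0.02, against 0.01 for all genes. The members' median thus lay near 0 in this comparison, in which the Yki+Tai-IR library's tai transcript was 0.916 times and its yki transcript 0.509 times that of the Yki library.

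In Yki+Tai-IR against GFP, 11 members (14.3%) were lower by 1 or more, against 1.55% of all genes, and 1 (1.30%) was higher, against 3.08% of all genes. The median difference was -0.17, against 0.01 for all genes, and 29 members lay below both Yki and GFP in Yki+Tai-IR. The share of lower members stands above that of all genes, but the rule held both libraries below Yki+Tai and limited Yki against GFP. Members also had a lower median mean level, 4.08 FPKM against 26.6 for all genes, so these shares are not like for like. GFP was the second highest library in 38 members, Yki+Tai-IR in 26 and Yki in 13. The other 3 libraries lay within 0.5 of each other in 36 members and were spread over 1 or more in 15.

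**Figure D5:**
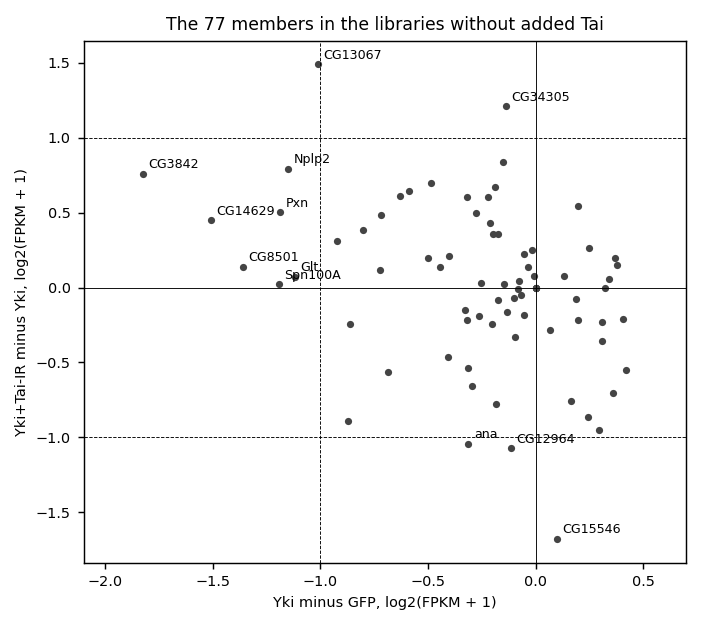
Each point is a member, with the difference of Yki from GFP on the horizontal axis and the difference of Yki+Tai-IR from Yki on the vertical axis, both in log2(FPKM + 1), and dashed lines at 1 and -1. Labeled members passed a difference of 1, and the other points lie within 1 of 0 on both axes. The rule sets the right edge of the plot, since Yki could exceed GFP by less than 0.5.

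Lists of genes of other tissues held few or no members. There was none on the lists for midgut, fat body, salivary gland, trachea, muscle, myoblasts, neurons, glia, leg disc, peripodial membrane, wing hinge, testis or the germline and piRNA pathway. Nor was there any on the lists for innate immunity, JAK-STAT signaling, ZP-domain matrix proteins, septate junctions or sugar and lipid metabolism. These lists had 1 to 20 measured genes each, and the members are 77 of 7757 genes. At that share a list of such size would hold few or no members, so their absence says little about these tissues and pathways. Of 14 leg disc genes 7 were higher by 1 or more in Yki+Tai than in Yki, against 3.13% of all genes. In the other direction 9 were lower than in Yki+Tai-IR, against 4.36% of all genes, and 12 were lower than in GFP, against 3.48%. Fat body markers summed to 248 FPKM in Yki+Tai, 325 in Yki+Tai-IR, 351 in Yki and 230.4 in GFP, and muscle genes to 611 FPKM in Yki+Tai, 648 in Yki+Tai-IR, 709 in Yki and 636 in GFP. Neither sum was highest in Yki+Tai. The sum of 12 tracheal markers was highest there, at 1169.7 FPKM in Yki+Tai, 907 in Yki+Tai-IR, 829 in Yki and 680.4 in GFP, and its part in the members' levels was not tested. In all, 13 of the 77 members were on any of the 27 lists, and the share of all genes on them was not worked out.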

How the data were processed

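RNA was measured in 4 wing disc libraries, 1 per genotype. The authors deposited FPKM values for 13990 genes in 1 table, and per the labels' protocols 4 µg of total RNA was depleted of ribosomal RNA before a TruSeq version 2 library was made, which records no strand. Per the submitters' processing notes, they used TopHat2 2.0.12 and Cuffdiff 2.2.1 with the dm6 build, and CASAVA 1.4; which annotation was counted is not given in the sources used here. The unit scales by length and library size, so transcripts that take more of a library lower the rest, and values of overlapping genes depend on how Cuffdiff shared fragments.

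The members were found by the rule given in the text, with a pseudocount of 1 and a limit of 1 on log2(FPKM + 1), a scale that understates the change of low genes. The members and the 27 gene lists were chosen with earlier results of these data known, and so they support nothing independently. The role groups, the neighboring genes shown and the alternatives that leave out a library, genes at 0 or short genes were chosen after values were seen. Named genes are the 30 members with the widest margin, members on a list, with 20 FPKM or more in Yki+Tai or next to another member, and the 5 on each side of the limit; others named were chosen after their values were seen.

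Depth was estimated from the steps between low FPKM values of genes with 1 transcript, after 210 nt was taken from the length; 71.8% to 73.5% of 968 to 1041 values per library came within 0.08 of a whole number of fragments, where 16% would by chance. Since that share is partial, no count test was run. With 1 library per genotype no test was possible. The fragments of a gene were estimated with its longest annotated transcript less 210 nt. This was also done for genes with several transcripts, so their fragment numbers are approximate. Counting error is given by fragments only and leaves out variation between pools.

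Of the 13990 symbols, 13747 matched the Ensembl annotation (release 115, dm6 coordinates). The motif search in promoters that had been planned was not run, since no promoter sequence was used here. The counting steps were tested on simulated data. Python 3.11.15, numpy 2.4.6, pandas 2.3.3, scipy 1.17.1 and matplotlib 3.10.9 were used.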

Additional observations from a re-analysis of the deposited data

How the results depend on the processing

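The number of genes that met the rule was 77, and it ranged from 32 to 156 over the alternatives run. A pseudocount of 5 in place of 1 gave 46 genes, 33 of them among the 77, whose margins then ran down to 0.43 with a median of 0.93. That alternative also gave 110 genes higher in Yki+Tai than in Yki (243 with 1), 140 than in Yki+Tai-IR (274) and 149 than in GFP (288), and 154 genes different between Yki+Tai-IR and GFP (359). A pseudocount of 0.1 gave 551 for that last count and 89 genes that met the rule, 72 of them among the 77. With no filter on the mean 122 genes met the rule and 20 of them had another within 20 kb (9 with the filter). With a mean of 5 FPKM or more these counts were 32 and 0, and the comparisons gave 121, 165, 163 and 198 genes in the order above. Fewer genes enter there by construction. A limit of 0.8 gave 116 genes and one of 1.5 gave 33. Keeping all families gave 92 genes with 14 neighbors, and dropping the limit on Yki against GFP gave 112 with 15. Leaving out the Yki library, chosen after seeing the data, gave 156 genes with 29 neighbors, and leaving out the GFP library 149 with 21, since fewer conditions apply. Leaving out the Yki+Tai-IR library gave 99 genes. Rescaling by the median ratio gave 79 genes, which held all 77, and rescaling to the same FPKM sum gave 82, without CG10512 and dve. Leaving out genes listed at 0 in any library gave 68 and leaving out transcripts under 500 nt gave 72. Changes of pseudocount, filter, limit or libraries used cannot turn the sign of a gene's difference. Under the rescalings, which could, the lowest margin of the 77 was 1.01 by the median ratio and 0.99 by the FPKM sum. No paired analysis was possible because each genotype has 1 library. With a few fragments in the other libraries, the size of a wide margin is poorly resolved.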

Other observations

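The limit on Yki against GFP kept 35 genes out that were otherwise higher by 1 or more in Yki+Tai than in each other library. Among them are kibra, with a margin of 1.34, and the ecdysteroid hydroxylase gene Cyp18a1, with a margin of 1.36. Ddc, the dopa decarboxylase of cuticle tanning, had a margin of 1.68, the cuticle gene Edg78E one of 2.06 and the larval cuticle gene Lcp65Ad one of 2.44. Pburs, a subunit of the hormone bursicon that hardens the cuticle and expands the wing, had a margin of 1.91, and the sodium channel gene ppk one of 2.52. In these 7 genes Yki exceeded GFP by 1.20 for kibra, 1.496 for Cyp18a1, 0.59 for Ddc, 0.76 for Edg78E, 1.79 for Lcp65Ad, 1.57 for pburs and 1.15 for ppk on the log2 scale. They were picked after their values were seen.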
